A study of Drosophila melanogaster with 4 samples.

Results

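The dpr and DIP genes of Drosophila melanogaster encode a pair of interacting families of cell-surface proteins with immunoglobulin domains. Their members here were the rows of the deposited count table whose symbol was dpr with a number or DIP with a Greek letter, which gave 32 of 17137 genes: 21 dpr genes (dpr1 to dpr21) and 11 DIP genes (DIP-alpha to DIP-lambda). A further 4 symbols that look alike (DIP1, DIP2, Dip-B and Dip-C) fell outside the rule. The RNA was poly(A) RNA of nuclei pulled down by the INTACT method from heads of flies aged 10 days. In both groups the nuclei carried a UAS-UNC84 tag, a nuclear envelope protein, fused to GFP in the study's description. The VAChT:VGlut group (2 libraries) drove it by a split Gal4 whose parts came from the promoters of the vesicular acetylcholine and vesicular glutamate transporters. The VAChT:VGAT group (2 libraries) used the acetylcholine and GABA transporter promoters in the same way. Cells that use both promoters, and no others, should carry the tag, many heads were pooled per library, and no sex was given. Nothing in the labels says whether the libraries of a genotype were separate collections of flies, so p-values measure only the spread between these libraries, which may be technical.

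Dpr proteins (named for the defective proboscis extension response of a dpr1 mutant) sit on the surface of neurons and bind DIPs, the Dpr-interacting proteins, on the cells they meet. Each DIP binds a limited set of Dprs, and in the visual system and at the neuromuscular junction such pairs are known for matching synaptic partners and for keeping neurons alive. DIP-alpha binds Dpr6 and Dpr10, DIP-gamma binds Dpr11 and a few relatives, and DIP-delta binds Dpr12. Single neuron types are known to express their own combinations of these genes, so RNA from a mixed set of nuclei sums over many combinations.

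Gene counts summed to 2023040 and 2556988 in VAChT:VGlut, against 1937871 and 1490390 in VAChT:VGAT. The labelled cell type, neuronal nuclei, had its markers: all 10 genes of a pan-neuronal list were tested, and their summed level was 12427 and 12742 CPM (counts scaled to a library of 1000000) in VAChT:VGlut, against 10684 and 10754 CPM in VAChT:VGAT. This list is shared by neurons in general, so it does not show that neurons using both promoters were enriched. Genes of photoreceptors, which are also neurons, and of non-neuronal cells were present as well. Summed levels in the same order were 35446 and 35812, against 29260 and 29394 CPM, for 16 photoreceptor genes. For 7 fat body genes they were 28207 and 27569, against 34110 and 34188 CPM. For 12 glial genes they were 2498 and 2417, against 3058 and 3034 CPM, with gcm at 0.503 to 2.56 CPM and not tested. For 10 muscle genes they were 1606 and 1606, against 1157 and 1182 CPM, with Act88F at 0.512 to 1.19 CPM and not tested. By the edgeR test described below, 9 of 16 tested photoreceptor genes were higher in VAChT:VGlut and 2 were lower, and 8 of 9 muscle genes were higher. Of the others, 6 of 7 fat body genes and 5 of 11 glial genes were lower in VAChT:VGlut. The part of these lists in the values of the recognition genes was not tested. In such bulk RNA, fewer cells of a type and less RNA per cell cannot be told apart.

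Nearly all of the family was detected in both genotypes, and levels ranged widely between genes. Of the 32 members, 31 passed the filter on low counts. The exception was DIP-iota, with 0 and 1 reads in VAChT:VGlut and 1 and 1 in VAChT:VGAT. This is under the 3 counts that a count of 0 allows (1.17 to 2.01 CPM over the 4 libraries), a limit that covers counting error only. Together the members had 2640 and 2690 CPM in VAChT:VGlut, against 2448 and 2542 CPM in VAChT:VGAT. Means over the 4 libraries spanned 9.43 to 333 CPM in the 31 tested members, and 24 of the 31 were at or above the median tested gene (39.1 CPM).

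For levels compared between genes, CPM were divided by exonic length in kb. On this scale the median dpr gene stood above the median DIP gene in every library. The median dpr gene had 28.8 and 31.7 CPM per kb in VAChT:VGlut, against 27.1 and 28.1 in VAChT:VGAT. The median DIP gene, DIP-iota included, had 10.1 and 11.4 CPM per kb in VAChT:VGlut, against 8.73 and 9.35 in VAChT:VGAT. The median over all 8246 tested genes was 17.2 CPM per kb, which lies between the medians of the 2 families. DIP genes supplied 17.8% and 17.7% of the family's CPM in VAChT:VGlut, against 17.1% and 16.6% in VAChT:VGAT. These shares did not overlap, and their difference was not tested.

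**Figure D1:**
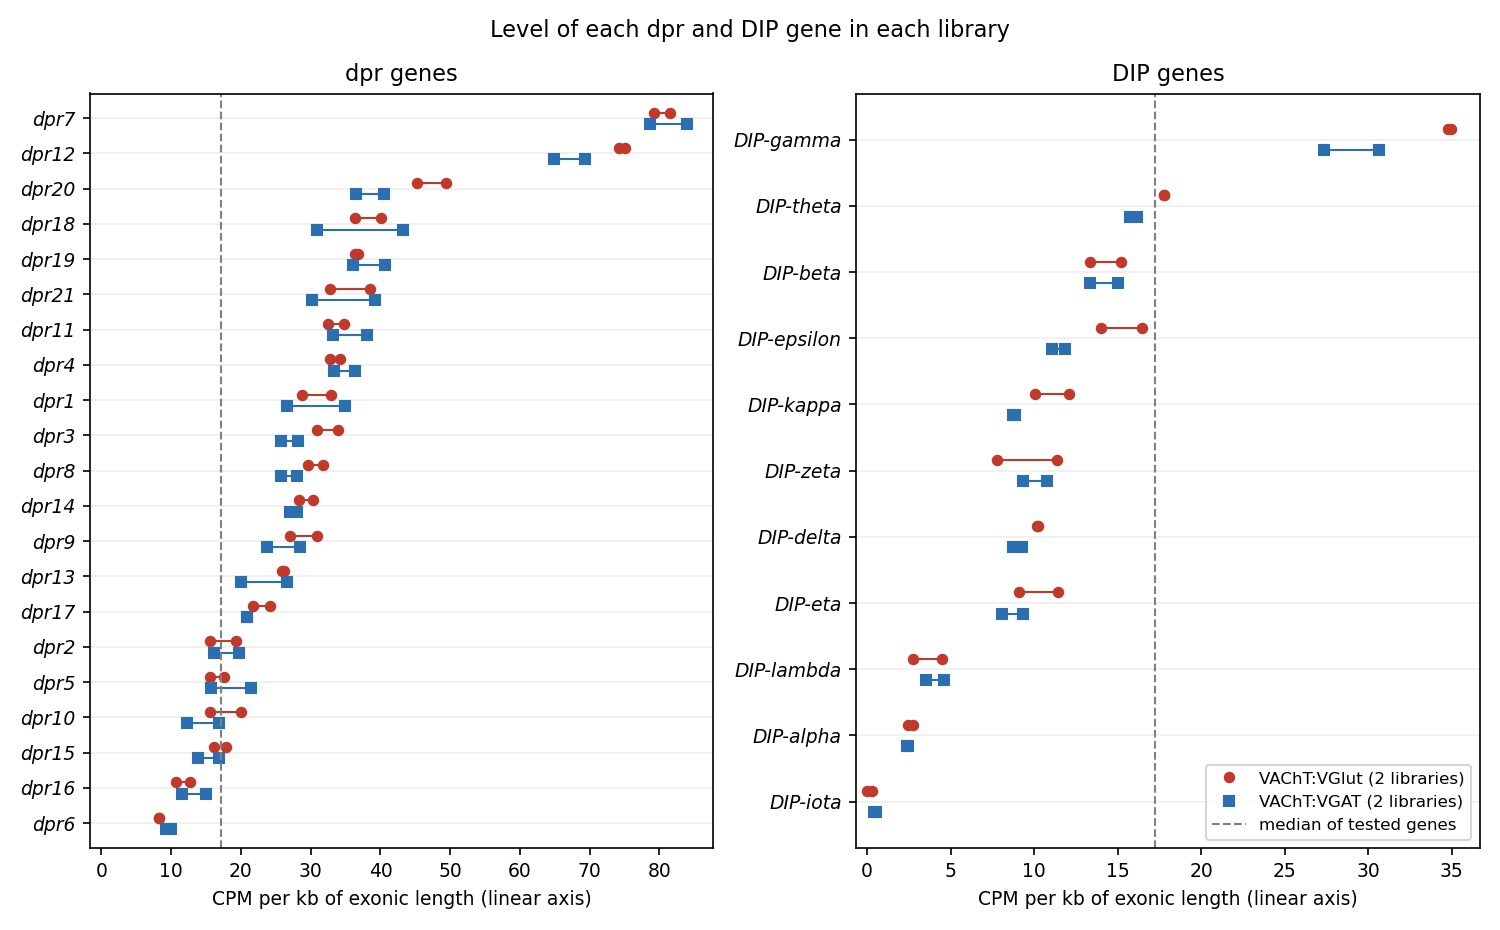
Level of each dpr gene (left) and DIP gene (right) in CPM per kb of exonic length on linear axes that differ in range, with 1 point per library joined within a genotype (VAChT:VGlut above, VAChT:VGAT below). The dashed line is the median tested gene, 17.2 CPM per kb. Most pairs of bars overlap or lie close together, while the genes range from 80.9 for dpr7 to 0.297 for DIP-iota.

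The most abundant member per length was dpr7, whose 4 libraries lay between 78.7 and 83.9 CPM per kb, followed by dpr12, whose libraries all lay at 64.9 or more. The libraries of these genes did not overlap on this scale. In CPM, which counts the reads of the whole gene, dpr12 was the highest member. The ratio of dpr7 to dpr12 was 0.340 and 0.354 in VAChT:VGlut, against 0.390 and 0.390 in VAChT:VGAT. Neither gene was called by the edgeR test described below, and the difference in ratio was not tested. The next gene per length was dpr20, between 36.5 and 49.4 CPM per kb, below every dpr12 library. From dpr20 down to dpr17 (mean 21.9), the ranges of neighbours in the order overlapped, and no order can be read between such neighbours. This stretch holds 13 dpr genes and DIP-gamma (31.9), the 1 DIP gene above the median tested gene. Every dpr17 library lay above every dpr2 library (mean 17.7), but the range of dpr5 (mean 17.6), the next in order, overlapped that of dpr17. From dpr2 down to dpr6 (8.93) neighbours again overlapped. The dpr6 gene was the lowest of the dpr genes, at the 26.5th percentile of tested genes per length. At the bottom, each below all libraries of the gene before it, were DIP-lambda (3.83), DIP-alpha (2.50) and DIP-iota (0.297), although the lowest DIP-lambda library and the highest DIP-alpha library both rounded to 2.74. Exonic length comes from the annotation, and a gene whose long annotated ends are unused in these cells is understated on this scale. DIP-alpha had the longest annotated exons of the family (8983 bases).

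Whether any member differed between the genotypes was read from the quasi-likelihood test of edgeR, adjusted over 8246 tested genes. Of the 31 tested members, 1 was called at an adjusted p under 0.05, higher in VAChT:VGlut, and 0 were lower. The share called was 3.23% of members, against a background of 11.8% of all tested genes (6.22% higher in VAChT:VGlut, 5.54% lower). At an unadjusted p under 0.05 there were 6 members of 31, and 1829 genes of 8246. Libraries of the genotypes did not overlap in 49.3% of all tested genes, so the lack of overlap given below for single members is common. Limma-voom called 0 of the 31 members. DESeq2 called 0 of the 16 to which it gave an adjusted p, and gave none to the other 15, which could not be called. The balance of directions among all called genes depends on the scaling: 52.9% were higher in VAChT:VGlut, 40.9% with library totals alone and 4.35% when libraries were scaled by the pan-neuronal list.

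The called gene was dpr20 (FBgn0035170; dm6 chromosome 3L, 852720 to 857248, minus strand). Dpr20 is grouped here with Dpr13, Dpr14, Dpr18 and Dpr19 as partners of DIP-epsilon and DIP-zeta. It had 134 and 123 CPM in VAChT:VGlut, against 99.3 and 110 CPM in VAChT:VGAT. Both VAChT:VGlut libraries lay above both VAChT:VGAT libraries, and the nearest values were 123 and 110 CPM. The log2 fold change was 0.30 (with SE 0.10 and adjusted p = 0.0482 by edgeR), which is 1.23-fold higher. The adjusted p is just under the threshold, and the call rests on all 4 libraries: without any 1 of them it was lost, with log2 fold changes of 0.22 to 0.37. It was also lost with library totals alone, with pan-neuronal scaling (log2 fold change 0.07), with DESeq2 (adjusted p = 0.292) and with limma-voom (adjusted p = 0.0508). It kept its direction in all 16 alternatives and its call in 5.

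For dpr19, whose exonic length of 2684 bases is close to the 2717 of dpr20, the groups overlapped. It had 97.5 and 98.5 CPM in VAChT:VGlut, against 96.7 and 109 CPM in VAChT:VGAT (log2 fold change -0.06, 95% interval -0.28 to 0.16, edgeR adjusted p = 0.827). The ratio of dpr20 to dpr19 was 1.38 and 1.25 in the VAChT:VGlut libraries, against 1.03 and 1.01 in the VAChT:VGAT libraries. Since dpr20 was picked by its call, this ratio lends the call no separate support. Within this binding set only dpr19 was used for a ratio, although dpr18 (2630 bases) is also close in length. For dpr18, a further member of this binding set, the values were 106 and 95.7 CPM in VAChT:VGlut, against 114 and 81.2 CPM in VAChT:VGAT (log2 fold change 0.01, edgeR adjusted p = 0.968). Here both VAChT:VGlut libraries lay between the VAChT:VGAT libraries. The remaining genes of the set were not called. The dpr13 gene had 85.9 and 85.0 CPM in VAChT:VGlut, against 65.5 and 87.2 CPM in VAChT:VGAT, and the dpr14 gene had 111 and 118, against 106 and 110 CPM, without overlap.

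DIP-epsilon had 51.8 and 44.1 CPM in VAChT:VGlut, against 34.8 and 37.3 CPM in VAChT:VGAT. Its libraries did not overlap and the fold change, 0.41 on the log2 scale, was the highest of the family, but with an SE of 0.17 it was not past the threshold (edgeR adjusted p = 0.125, 95% interval 0.06 to 0.75). DIP-zeta had 27.6 and 40.5 CPM in VAChT:VGlut, against 38.4 and 33.3 CPM in VAChT:VGAT, and the VAChT:VGAT libraries lay between the others.

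DIP-gamma, the most abundant DIP gene, is known in medulla neurons that contact photoreceptors expressing Dpr11. It had 108 and 108 CPM in VAChT:VGlut, against 85.0 and 95.2 CPM in VAChT:VGAT. The libraries did not overlap, and the log2 fold change was 0.27 (with SE 0.11 and adjusted p = 0.11 by edgeR), not past the threshold. Its partner dpr11 had 151 and 162 CPM in VAChT:VGlut, against 155 and 177 CPM in VAChT:VGAT, and these overlapped. Of its other partners, dpr15 had 56.3 and 62.4 CPM in VAChT:VGlut, against 48.1 and 58.6 CPM in VAChT:VGAT. For dpr16 the values were 31.2 and 36.9, against 33.8 and 43.9 CPM. For dpr17 they were 97.0 and 108, against 93.7 and 93.2 CPM. None of the genes in this group was called. Only DIP-gamma and dpr17 had libraries that did not overlap, as did 49.3% of all tested genes.

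DIP-delta and dpr12 form a pair known from the mushroom body, where it helps dopaminergic and intrinsic neurons form a lobe zone. The dpr12 gene had 353 and 349 CPM in VAChT:VGlut, against 306 and 326 CPM in VAChT:VGAT (log2 fold change 0.16, with SE 0.06 and adjusted p = 0.104 by edgeR). DIP-delta had 48.7 and 49.3 CPM in VAChT:VGlut, against 42.0 and 44.6 CPM in VAChT:VGAT. In both genes the VAChT:VGlut libraries lay above the VAChT:VGAT libraries without a call. Per kb, dpr12 had 74.6 and DIP-delta 10.2 in VAChT:VGlut, against 67.2 and 9.01 in VAChT:VGAT.

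DIP-alpha is known in subsets of medulla and motor neurons, and dpr10 in the muscles that those motor neurons contact. In VAChT:VGlut, dpr6 had 51.8 and 51.6 CPM, against 58.9 and 63.3 CPM in VAChT:VGAT, and it was the only tested member whose VAChT:VGlut libraries both lay below (log2 fold change -0.23, with SE 0.15 and adjusted p = 0.373 by edgeR). It was called lower when libraries were scaled by the pan-neuronal list (edgeR adjusted p = 0.0162). That scaling moved the median of all genes by -0.23 and called 2137 of 8246 genes, 4.35% of them higher in VAChT:VGlut. For dpr10 the values were 70.9 and 55.2 CPM in VAChT:VGlut, against 59.9 and 43.3 CPM in VAChT:VGAT, which overlapped. The ratio of dpr10 to dpr6 within a library was 1.37 and 1.07 in VAChT:VGlut, against 1.02 and 0.684 in VAChT:VGAT. Neither gene was called by the edgeR test described above (adjusted p = 0.373 for each), and the difference in ratio was not tested. DIP-alpha itself had 24.6 and 21.9 CPM in VAChT:VGlut, against 21.5 and 22.0 CPM in VAChT:VGAT, which overlapped. It rested on 33 to 55 reads a library, and 98.2% of its exon bases overlapped no other gene on the strand, the rest being shared with CG2875.

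DIP-beta, known in lamina neurons among others, binds a wide set of Dprs that includes Dpr6, Dpr8, Dpr9, Dpr10 and Dpr21. It had 70.4 and 80.3 CPM in VAChT:VGlut, against 79.3 and 70.6 CPM in VAChT:VGAT, and the groups overlapped (log2 fold change 0.01, 95% interval -0.25 to 0.27, edgeR adjusted p = 0.986). The dpr8 gene had 147 and 157 CPM in VAChT:VGlut, against 139 and 128 CPM in VAChT:VGAT, without overlap (log2 fold change 0.19, with SE 0.09 and adjusted p = 0.218 by edgeR). The dpr9 gene averaged 140 ± 13.6 CPM in VAChT:VGlut and 126 ± 15.9 CPM in VAChT:VGAT (SD, n = 2 each), and dpr21 had 35.4 ± 3.97 and 34.4 ± 6.31 CPM in the same order, with overlap in both.

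The genes of Dpr1 to Dpr5 are read here with DIP-eta, DIP-theta and DIP-iota, whose partners are among them. The dpr1 gene had 104 and 118 CPM in VAChT:VGlut, against 95.7 and 126 CPM in VAChT:VGAT, and the VAChT:VGlut libraries lay between the others. For dpr2 the values were 58.8 and 47.3, against 49.1 and 59.9 CPM, and for dpr4 they were 98.0 and 103, against 109 and 99.9 CPM. Those of dpr5 were 32.7 and 29.0, against 39.9 and 29.3 CPM. Of these dpr genes only dpr3 separated the groups, as did 49.3% of all tested genes. It had 97.5 and 107 CPM in VAChT:VGlut, against 89.0 and 81.2 CPM in VAChT:VGAT (log2 fold change 0.26, with SE 0.12 and adjusted p = 0.143 by edgeR). DIP-eta had 27.1 and 34.2 CPM in VAChT:VGlut, against 24.1 and 28.0 CPM in VAChT:VGAT, which overlapped. DIP-theta had 51.3 and 51.3 CPM in VAChT:VGlut, against 46.6 and 45.3 CPM in VAChT:VGAT (log2 fold change 0.16, with SE 0.16 and adjusted p = 0.626 by edgeR). Its libraries did not overlap, but no more than 87.4% of its exon bases were free of lncRNA:CR44822 on the strand, and reads in the rest are uncertain.

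The most abundant member per length, dpr7, had 120 and 124 CPM in VAChT:VGlut, against 119 and 127 CPM in VAChT:VGAT (log2 fold change -0.01, 95% interval -0.21 to 0.19, edgeR adjusted p = 0.974). The 2 remaining DIP genes were less abundant. DIP-kappa had 48.2 and 40.1 CPM in VAChT:VGlut, against 34.8 and 35.3 CPM in VAChT:VGAT, without overlap (log2 fold change 0.32, with SE 0.18 and adjusted p = 0.279 by edgeR). Without VAChT:VGlut replicate 1 its log2 fold change was 0.20. DIP-lambda had 11.1 and 6.75 CPM in VAChT:VGlut, against 11.3 and 8.66 CPM in VAChT:VGAT. It rested on 13 to 22 reads a library, and the groups overlapped.

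**Figure D2:**
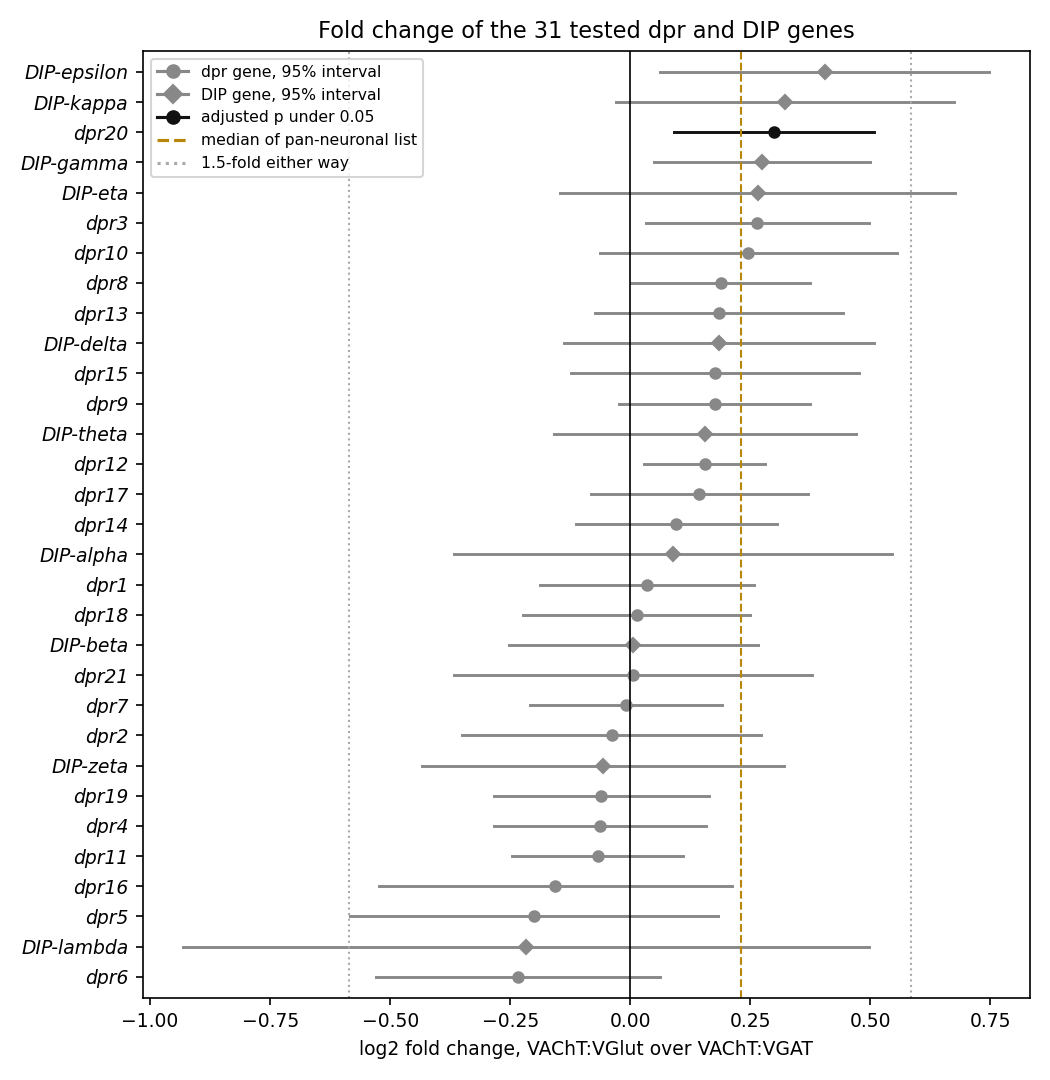
Log2 fold change (VAChT:VGlut over VAChT:VGAT) of the 31 tested members with 95% intervals from the edgeR fit. Circles are dpr genes and diamonds DIP genes. The black circle is dpr20, the 1 member with an adjusted p under 0.05, and the dashed line is the median of the pan-neuronal list, 0.23, with dotted lines at 1.5-fold either way. All point estimates lie between -0.23 and 0.41.

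Of the 30 members without a call, 26 had a 95% interval that lay within 1.5-fold either way, before any allowance for the number of members. The 4 whose interval reached further were DIP-epsilon (up to 1.68-fold higher in VAChT:VGlut), DIP-eta (1.60), DIP-kappa (1.59) and DIP-lambda (from 0.525 to 1.41). Beyond counting error, the spread between libraries was a common coefficient of variation of 2.18% over all genes, which may be technical. All these intervals rest on counting error and that spread. Variation between separate collections of flies may not be in them, so narrow intervals do not show that a gene is alike in the genotypes.

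Over the family, differences between libraries of the 2 genotypes overlapped in size with those within a genotype. The chi-square statistic per gene, which is 1 for counting noise alone, came over 31 members to 1.20 for the pair of VAChT:VGlut libraries and 1.69 for the pair of VAChT:VGAT libraries. In the 4 pairs across genotypes it ranged from 1.18 to 2.08. Over all genes with enough counts, the same statistic was 1.22 and 1.19 within the genotypes and 4.30 to 6.0 between them. It is a mean that grows with the read count at a given fold change, and levels were not matched. Tested genes reached 14424 CPM and tested members 333 CPM, so its values for members and for all genes cannot be compared in size.

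The median log2 fold change was 0.10 over the 31 tested members, with 21 above 0. It was 0.03 for the 21 dpr genes and 0.17 for the 10 tested DIP genes, against -0.01 for all tested genes, of which 48.8% were above 0. Of the 10 tested DIP genes, 0 were called by edgeR, 2 had an unadjusted p under 0.05, and limma-voom called 0. DESeq2 gave an adjusted p to 2 of them and called neither. The median of the pan-neuronal list was 0.23, with 9 of 10 called and all higher in VAChT:VGlut. When libraries were scaled by that list, the median of all genes moved by -0.23, and the medians became -0.20 for dpr and -0.06 for DIP genes. The dpr median was also just under 0 (-0.00081) with library totals alone. Without VAChT:VGlut replicate 1, VAChT:VGlut replicate 2 or VAChT:VGAT replicate 2 it was 0.08, 0.07 and 0.09 in turn. The libraries of the 2 genotypes did not overlap in 12 of the 31 members (38.7%), against 49.3% of all tested genes. VAChT:VGlut lay above in 11 members (35.5%) and below in 1 (3.23%), against 23.6% and 25.6% of all tested genes.

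**Figure D3:**
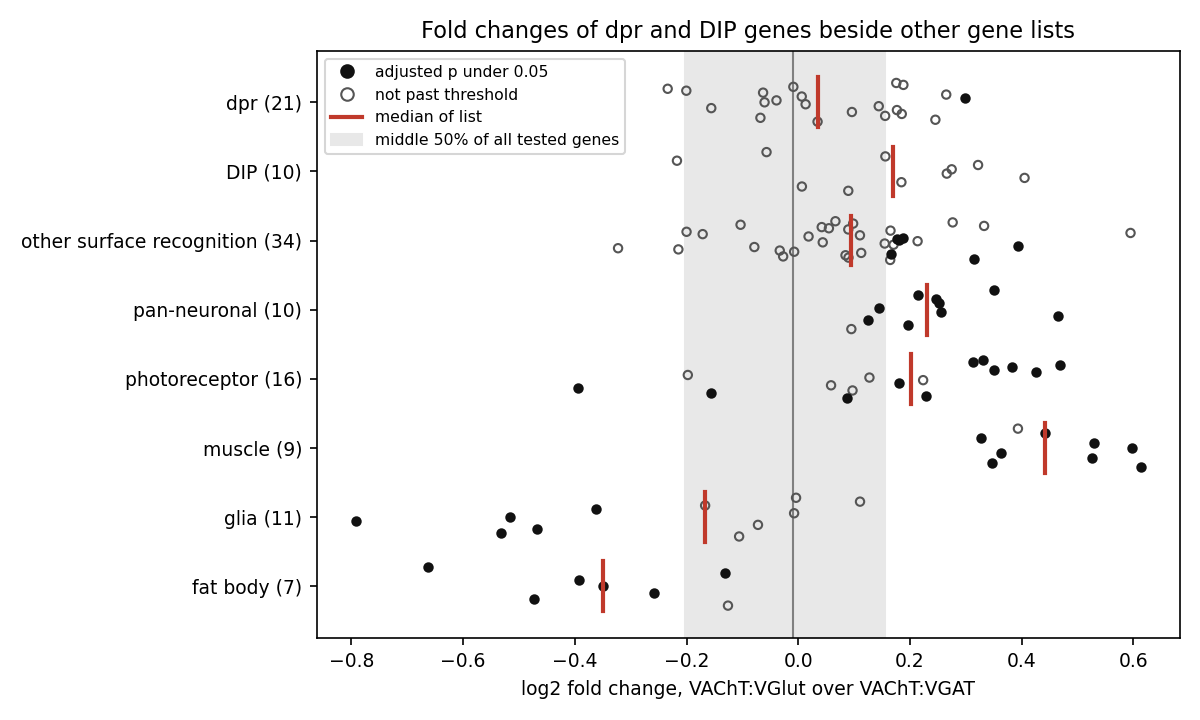
Log2 fold change (VAChT:VGlut over VAChT:VGAT) of each tested gene in the dpr and DIP families and in 6 other lists, with the number of genes in brackets. Filled points have an adjusted p under 0.05, red bars are list medians, and the grey band holds the middle 50% of all tested genes (-0.20 to 0.16). The dpr median (0.03) lies inside the band and the DIP median (0.17) just above it, together with the pan-neuronal, photoreceptor and muscle medians (0.23, 0.20 and 0.44), and the fat body median (-0.35) lies below it.

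Other genes of surface recognition were read from a list of 37 (teneurins, neurexin and neuroligins, Dscam genes, cadherins, Toll-like and leucine-rich repeat receptors and further immunoglobulin proteins). Of 34 tested, 6 (17.6%) were called, all higher in VAChT:VGlut, against 11.8% of all tested genes called and 6.22% higher. The list had a median exonic length of 6978 bases, against 2319 for tested genes. In the longest of 4 groups of equal size by exonic length, 19.3% of genes were called and 17.2% were higher in VAChT:VGlut. The median log2 fold change of the list was 0.09, which is smaller than the shift of all genes with pan-neuronal scaling (-0.23). CadN, which encodes N-cadherin, had 386 and 364 CPM in VAChT:VGlut, against 304 and 296 CPM in VAChT:VGAT (log2 fold change 0.31, with SE 0.06 and adjusted p = 0.000134 by edgeR). The neuroligin gene Nlg2 had 207 and 217, against 170 and 152 CPM (edgeR adjusted p = 0.000293), and the neurexin gene Nrx-1 had 920 and 937, against 826 and 811 CPM (edgeR adjusted p = 0.00112). Ten-a, Ten-m and Dscam2 were the other 3. The gene cDIP, whose secreted product binds Dprs and DIPs, had 16.1 and 21.9 CPM in VAChT:VGlut, against 13.3 and 12.0 CPM in VAChT:VGAT. The fold change, 0.59 on the log2 scale, was not past the threshold at this low level (with SE 0.28 and adjusted p = 0.179 by edgeR).

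Calls varied with abundance. With tested genes in 4 groups of equal size by mean CPM, 16 members lay in the third, where 8.30% of genes and 0 of the 16 were called. A further 8 lay in the most abundant group, where 30.4% of genes and 1 of the 8 were called. The members were long genes. Their genomic span, from the first to the last exon, had a median of 32.5 kb (3.74 to 379 kb), against 3.28 kb for tested genes, and 25 of 31 were in the longest of 4 groups of equal size by span. Fold changes and span were related across 8245 genes of the same libraries (Spearman rho 0.30). The median log2 fold change was -0.14 in the group with the shortest span and 0.09 in the longest, where 19.3% of all genes were called. The 25 members in that group had a median of 0.16, and 0 of them were called. With the trend on exonic length removed, dpr20 was still called (edgeR adjusted p = 0.0489), and the medians were 0.09 for dpr and 0.14 for DIP genes. The trend on span was not removed.

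**Figure D4:**
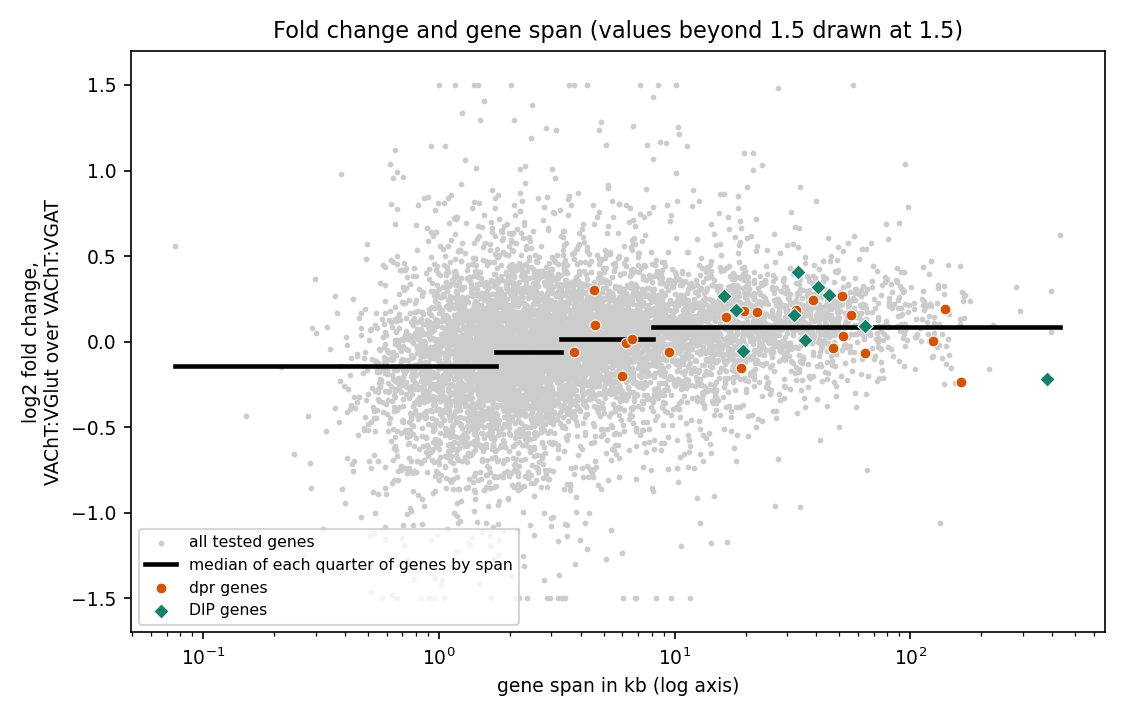
Log2 fold change (VAChT:VGlut over VAChT:VGAT) against gene span in kb on a log axis. Grey points are all tested genes, black lines the medians of 4 groups of equal size by span, circles dpr genes and diamonds DIP genes. Values beyond 1.5 are drawn at the edge. The group medians run from -0.14 to 0.09, and 25 of the 31 members lie in the longest group.

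The members were spread over the genome, with 9 on chromosome arm 2L, 8 on 3R, 5 each on 2R and X, 4 on 3L and 1, dpr7, on chromosome 4. Pairs of members within 60 kb of each other were few. The dpr6 and dpr10 genes lay 8.09 kb apart on 3L, dpr15 and dpr17 27.4 kb apart on 3R, and dpr4 and dpr5 27.5 kb apart on 3R, each pair transcribed towards each other. DIP-eta and DIP-theta lay 8.34 kb apart on 2L on the same strand. In no pair were both genes called, and dpr20 had no member nearby.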

How the data were processed

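The authors deposited raw counts per gene. Per the file headers, featureCounts 1.5.1 assigned reverse-stranded read pairs to the exons of dm6 refGene. STAR and fastp are named in the submitters' processing notes, without settings. The exonic length of each gene came with the deposited counts. From these, CPM were computed over TMM-scaled library sizes (factors 0.987 to 1.01). All genes were tested by edgeR 4.0.16 under R 4.3.3 (quasi-likelihood F test), with genotype as the only term, filterByExpr (minimum count 10, minimum total 15; 8246 genes) and Benjamini-Hochberg adjustment at 0.05. Alternatives used DESeq2 1.42.0, limma 3.58.1, other scalings, filters and variation, and each library left out. The fits were tested on simulated data. Each fold change divides VAChT:VGlut by VAChT:VGAT.

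The members and lists were chosen with earlier results of these data known, and binding partners are from general knowledge. Every member could be named, and by rule fold changes are given for members past the threshold and the 5 most abundant per length of each family. Those of dpr3, dpr6 and dpr8 were added after their values were seen. From the surface recognition list, values are given for the 3 genes with the smallest p-values past the threshold and for cDIP. The other called genes of that list are named without values. Of 32 members, 32 matched a FlyBase identifier and overlapped the Ensembl span of the same assembly, and 2 overlapped exons of another gene on the same strand. Depth was 1490390 to 2556988 counts a library. No column of per-sample values was unused. Sequences were not used here.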

Additional observations from a re-analysis of the deposited data

How the results depend on the processing

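The number of members called, 1 (dpr20), was the same with size factors of DESeq2, with no filter, at a mean of 50 counts or more and with the length trend removed. It was 0 with library totals alone, limma-voom, a test against a 1.5-fold change and a biological coefficient of variation fixed at 0.1 or 0.2, and 0 in each fit that left out a library. DESeq2 also called 0, but gave no adjusted p to 15 of the 31. With pan-neuronal scaling it was 4 (dpr4, dpr6, dpr11 and dpr19, all lower). The count of all genes called was 970, and it was 2137 with pan-neuronal scaling, 370 with DESeq2 (of 3130 genes with an adjusted p), 46 against a 1.5-fold change, 186 and 24 at a variation of 0.1 and 0.2, 628 with the length trend removed and 513 to 738 without a library (513 without VAChT:VGlut replicate 2, 612 without VAChT:VGAT replicate 1). The replicate number as a block gave 1 member (dpr20) and 1049 genes; the deviations of same-numbered libraries had a correlation of -0.03, so the numbers were not taken to pair them. Causes of these differences were not tested, and fits without a library also have fewer samples.

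Of 494 fold changes of members under the alternatives, 47 took the other sign, none of them called in either fit. Among the genes given with a fold change these were, with library totals, dpr18 (-0.0223) and DIP-beta (-0.0289); with pan-neuronal scaling, dpr8 (-0.0455), dpr12 (-0.0780), dpr18 (-0.219), DIP-beta (-0.227) and DIP-theta (-0.0775); with no filter, dpr7 (0.0029); at a mean of 50 counts, dpr18 (-0.0052) and DIP-beta (-0.0122); with the length trend removed, dpr7 (0.0859) and DIP-beta (-0.0645). Median fold changes turned to -0.00081 (dpr, library totals), -0.201 (dpr) and -0.0632 (DIP, both pan-neuronal scaling). With pan-neuronal scaling, fold changes that kept their sign but moved by over 1.5 times were DIP-epsilon (0.17), DIP-gamma (0.04), DIP-kappa (0.09), dpr3 (0.03), dpr7 (-0.24), dpr19 (-0.29), dpr20 (0.07) and dpr6 (-0.47). That of dpr12 was 0.10 with the length trend removed and 0.10 without VAChT:VGAT replicate 1. Without 1 library, fold changes that took either sign ran from -0.0605 to 0.0335 for dpr7, -0.181 to 0.301 for dpr18, -0.156 to 0.0203 for dpr19 and -0.0977 to 0.102 for DIP-beta.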
